A study of Homo sapiens with 6 samples.

Results

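To explore the genes with which oral carcinoma cells attach to the basement membrane, the sheet of matrix beneath an epithelium, a group of 39 genes was described in Cal27 cells with a hairpin RNA against the inflammatory cytokine interleukin-1β (IL-1β). The group was chosen by function, with earlier results of these data known. It held integrin chains, laminin chains, basement membrane collagens, matrix linkers and proteoglycans, hemidesmosome components, integrin adaptors and other matrix receptors. Of the 39 genes, 35 had a probe set (several short probes against the same transcript) annotated with their symbol alone, among 19775 genes in all with such a probe set. ITGB6 was listed only on 4 probe sets that carry several symbols, and LAMA3, COL17A1 and DAG1 were not analysed here. Each gene was represented by the probe set with the highest mean signal over the 6 arrays, and its other probe sets served as a check. Signal is the deposited linear intensity, and a fold change is LV-shIL-1β minus LV-shNC on the log2 scale.

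Cal27 is a long-established human cell line from a squamous carcinoma of the tongue. The cells of the group called LV-shIL-1β carried a lentiviral short hairpin RNA against IL-1β, and those of the group called LV-shNC carried a scrambled hairpin in the same kind of vector. Both groups had been selected in puromycin at 2 µg/mL for 2 weeks, each group rests on a single hairpin sequence, and RNA was hybridised to Affymetrix U133 Plus 2.0 arrays, 3 per group. Nothing in the labels tells if replicate arrays stem from different cultures. The p-values therefore describe the spread between these arrays alone, and that spread may be technical.

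Integrins are receptors made of an alpha and a beta chain that span the cell membrane and hold matrix outside the cell and the cytoskeleton inside it. In stratified epithelia the basal cells rest on laminins and on a network of type IV collagen, joined by nidogen and perlecan, and are fixed to it by hemidesmosomes, in which the integrin of alpha 6 and beta 4 meets plectin and dystonin. Squamous carcinomas keep much of this equipment, and adaptors such as talin, kindlin and focal adhesion kinase carry signals from integrins into the cell.

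IL1B, the target of the hairpin, had signals of 1569, 1569 and 1596 in LV-shIL-1β cells, against 2677, 2611 and 2494 in LV-shNC cells. No LV-shIL-1β array reached the lowest LV-shNC array, and the signal fell by 39.1% (log2 fold change -0.72 ± 0.04, SE, limma, Benjamini-Hochberg adjusted p = 2.45e-05). Over the 27546 probe sets tested, 7.06% passed the adjusted threshold of 0.05. Among the 12311 genes tested by their brightest probe set, 8.53% passed, 4.5% lower and 4.03% higher in LV-shIL-1β. Over the 27546 probe sets tested, the lowest correlation of log2 signal within groups was 0.9948 and the highest between groups 0.9942.

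Most adhesion genes were close to their LV-shNC level. All 35 were above the filter on low signal on all 6 arrays. COL4A1, ITGA3 and HSPG2 were lower in LV-shIL-1β, and 0 of the 35 genes were higher by limma's adjusted p. At an unadjusted limma p under 0.05, 10 of the 35 genes had lower and 2 had higher signals, where 12% and 13% of all genes tested did so. The methods' t-test with the same adjustment called COL4A1 lower and 0 genes higher. The 3 genes make 8.57% of the 35, close to the 8.53% of all genes tested that passed. Fold changes ran from -0.36 to 0.32 on the log2 scale, with a median of -0.04, against a median of 0.00 over all genes tested, and 65.7% were below 0, against 48.9% of all genes tested. In 10 of the 35 genes every LV-shIL-1β array lay below every LV-shNC array, and in 2 every LV-shIL-1β array lay above, where 15.7% and 15.9% of all genes tested did so. The 95% confidence intervals of all 35 genes lay within 1.5-fold in either direction. In such bulk RNA, fewer cells that express a gene and less RNA per cell cannot be told apart.

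**Figure D1:**
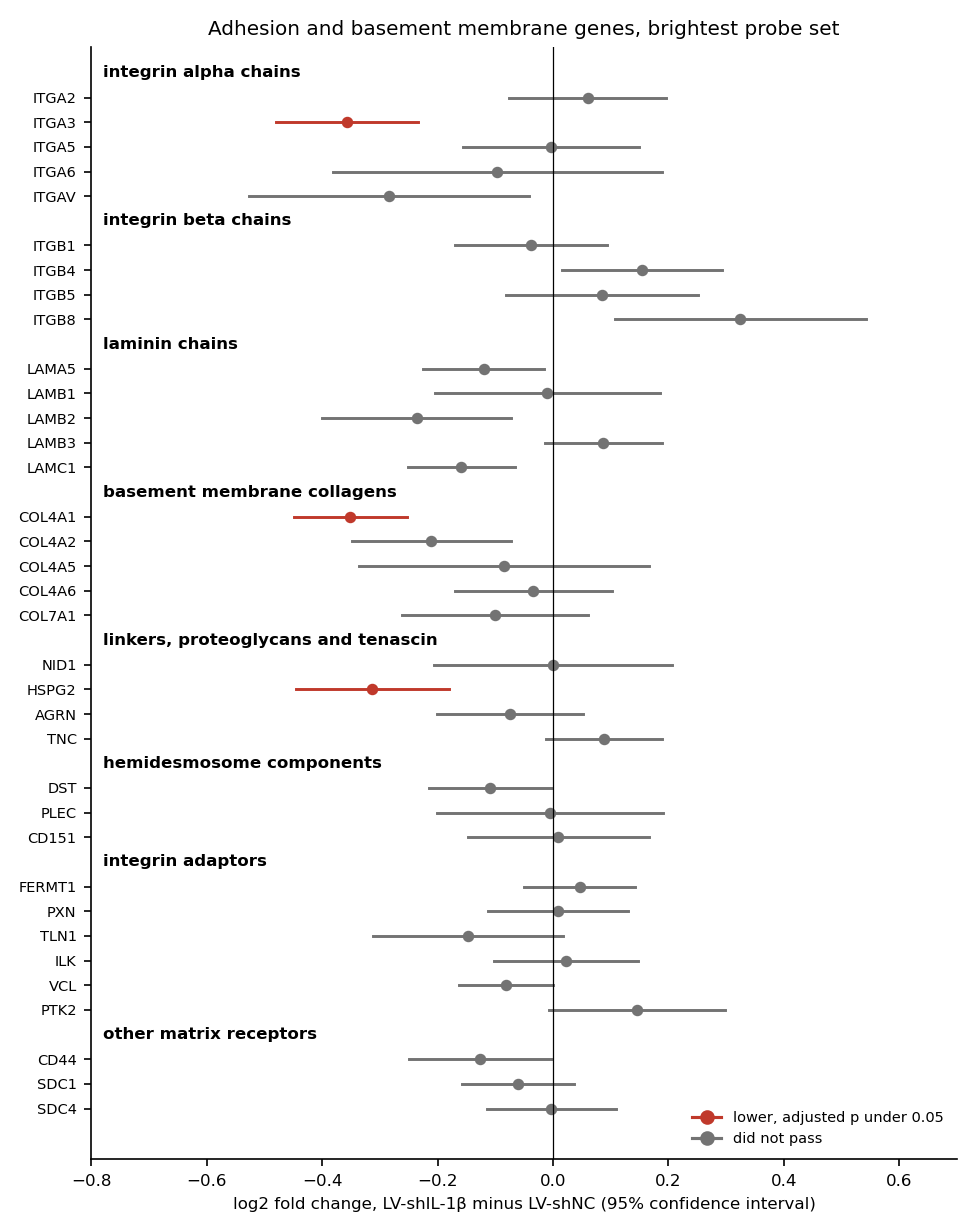
Log2 fold change (x axis, LV-shIL-1β minus LV-shNC) of the brightest probe set of each of the 35 genes, grouped by role, with points for estimates and lines for 95% confidence intervals from limma. ITGA3, COL4A1 and HSPG2, in red, are lower in LV-shIL-1β at fold changes of -0.36, -0.35 and -0.31, and all intervals lie within 1.5-fold.

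Among the integrin alpha chains, ITGA3 was lower and the other 4 did not pass. ITGA3 pairs with beta 1 to bind laminins. Its signals were 178, 182 and 175 in LV-shIL-1β cells, against 231, 235 and 219 in LV-shNC cells. The 2 groups did not overlap, and the signal fell by 21.9% (log2 fold change -0.36 ± 0.06, SE, limma adjusted p = 0.00527). This gene had a single probe set, so no other measurement of it was at hand, and with the methods' t-test its adjusted p was 0.0512. ITGAV, which pairs with several beta chains to bind vitronectin, fibronectin and latent TGF-β, had signals of 522, 413 and 371 in LV-shIL-1β cells, against 494, 565 and 517 in LV-shNC cells. LV-shIL-1β array 1 lay among the LV-shNC arrays and the other two LV-shIL-1β arrays below them. Its log2 fold change of -0.28 ± 0.11 (SE) did not pass (limma adjusted p = 0.154). Without 1 array at a time the fold change ran from -0.42 to -0.18, with limma adjusted p from 0.0134 to 0.377. ITGAV passed in 1 of 17 alternative analyses, the one without LV-shIL-1β array 1 (-0.42, limma adjusted p = 0.0134). ITGA6, the laminin receptor chain of hemidesmosomes, had signals of 1383, 1026 and 947 in LV-shIL-1β cells, against 1069, 1335 and 1150.2 in LV-shNC cells, and the groups overlapped. Its fold change of -0.10 ± 0.13 had the widest SE of the 35 genes. The collagen receptor chain ITGA2 (0.06 ± 0.06) and the fibronectin receptor chain ITGA5 (-0.003 ± 0.07) lay near 0 on the log2 scale.

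Of the 4 integrin beta chains 0 passed limma's adjusted threshold. On the brightest probe sets 3 of them had fold changes above 0 and 1 below, where 48.9% of all genes tested were below 0. ITGB4 and ITGB8 were the 2 higher at an unadjusted limma p under 0.05, as were 13% of all genes tested. ITGB8, whose partner is ITGAV and whose dimer activates latent TGF-β, had signals of 214, 177 and 166 in LV-shIL-1β cells, against 135, 156 and 152 in LV-shNC cells. The groups did not overlap, and the fold change of 0.32 ± 0.10 was the highest of the 35 genes but missed the threshold (limma adjusted p = 0.0783). Its other 2 kept probe sets, with fold changes of -0.18 and -0.14, disagreed with the brightest in sign, and the mean over all 3 was -0.00075. ITGB4, the beta chain of hemidesmosomes, had signals of 302, 335 and 324 in LV-shIL-1β cells, against 306, 277 and 279.5 in LV-shNC cells. The fold change was 0.15 ± 0.06 (limma adjusted p = 0.172). Its other kept probe sets differed by 0.24, -0.03 and 0.03, so they disagreed in sign. ITGB1, the common partner of the alpha chains above, differed by -0.04 ± 0.06 on its brightest probe set and by 0.03 and 0.10 on the other two. ITGB5, the beta chain of a vitronectin receptor, differed by 0.09 ± 0.07 on its brightest probe set. The other kept probe sets of ITGB5 differed by -0.08 and 0.15.

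**Figure D2:**
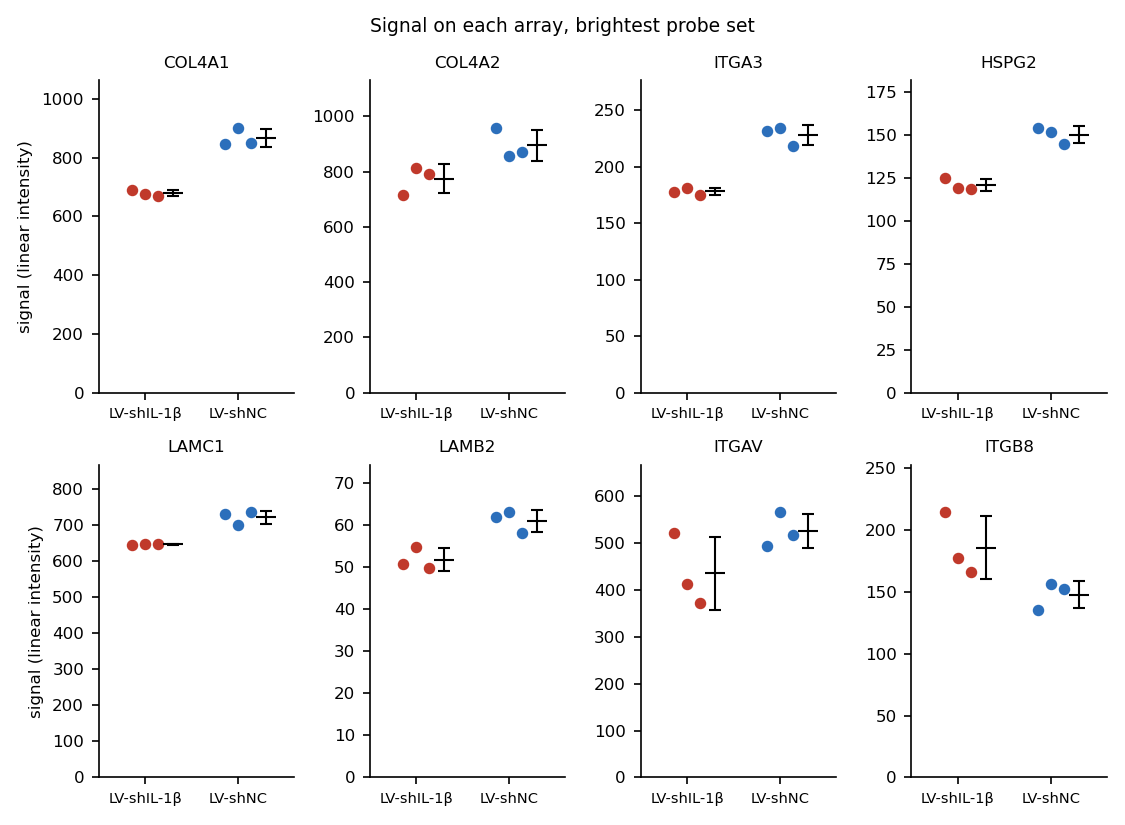
Signal (vertical axes, linear intensity from 0) of 8 genes on each array, with LV-shIL-1β in red on the left and LV-shNC in blue on the right, and black marks for the mean ± SD of 3 arrays. COL4A1, ITGA3 and HSPG2 passed the threshold, LAMC1, COL4A2 and LAMB2 are lower without overlap, ITGB8 is higher without overlap, and ITGAV overlaps, with 522, 413 and 371 on the LV-shIL-1β arrays.

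Integrin chains work as pairs, so the ratio of partner chains was taken within each array. The absolute ratio depends on the probes, and only its difference between groups was read. That difference depends on the choice of probe set as well. For ITGB8 the brightest probe set was used (0.32), and its other 2 kept probe sets had fold changes of -0.18 and -0.14. The log2 ratio of ITGAV to ITGB8 was 1.22 ± 0.06 in LV-shIL-1β cells and 1.83 ± 0.06 in LV-shNC cells (SD, n = 3 each), a difference of -0.61 (two-sided exact permutation p = 0.1, 0.3 after Benjamini-Hochberg adjustment over 12 pairs of chains). LV-shIL-1β array 1, which was highest for both chains, had a ratio like that of the other arrays of its group. The ratio to ITGB1 differed by -0.32 for ITGA3, by -0.25 for ITGAV and by 0.10 for ITGA2, each with exact permutation p = 0.1, the smallest that 3 against 3 arrays allow. The ratio of ITGA6 to ITGB4 differed by -0.25 (exact permutation p = 0.3) and that of ITGAV to ITGB5 by -0.37 (exact permutation p = 0.3). None of the 12 pairs could pass after adjustment in this design.

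Of 5 laminin chains 0 passed limma's adjusted threshold. In 3 of them, LAMA5, LAMB2 and LAMC1, every LV-shIL-1β array lay below every LV-shNC array, as in 15.7% of all genes tested. The same 3 were lower at an unadjusted limma p under 0.05, as were 12% of all genes tested. Laminins are trimers of an alpha, a beta and a gamma chain. LAMC1, the gamma chain shared by most laminins, had signals of 647, 648 and 648 in LV-shIL-1β cells, against 730.3, 702 and 736 in LV-shNC cells. The LV-shIL-1β arrays were nearly equal to each other and lay below all LV-shNC arrays, and the gene stood just outside the threshold (-0.16 ± 0.04, limma adjusted p = 0.0506), whereas HSPG2 was the member just inside it (0.0137). LAMC1 passed in 2 of 17 alternative analyses. These were quantile normalization (limma adjusted p = 0.0339) and a filter at the higher signal of 37.2 (limma adjusted p = 0.0445). Without 1 array at a time its limma adjusted p lay between 0.0692 and 0.159. On its second kept probe set the groups overlapped (-0.09 ± 0.06, limma adjusted p = 0.461). LAMB2, a beta chain found with alpha 5 in many epithelia, had signals of 50.7, 54.8 and 49.8 in LV-shIL-1β cells, against 61.9, 62.9 and 57.9 in LV-shNC cells, again without overlap (-0.24 ± 0.07, limma adjusted p = 0.0877). LAMA5, the alpha chain of those trimers, had signals of 729, 702 and 745 in LV-shIL-1β cells, against 824, 761 and 781 in LV-shNC cells, a fold change of -0.12 ± 0.05 (limma adjusted p = 0.163).

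The other two laminin chains overlapped between groups. LAMB3, the beta chain of laminin-332 on which basal keratinocytes rest, had signals of 1011, 1087 and 1066 in LV-shIL-1β cells, against 1021, 955 and 1003 in LV-shNC cells, and it was the sole laminin chain of the group with a fold change above 0 (0.09 ± 0.05, limma adjusted p = 0.291). LAMB1 differed by -0.01 ± 0.09.

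All 5 basement membrane collagens had fold changes below 0, as did 48.9% of all genes tested, and COL4A1 passed. COL4A1 and COL4A2 encode the alpha 1 and alpha 2 chains of the common type IV collagen trimer, and lie head to head on chromosome 13 with a short stretch between their starts. COL4A1 had signals of 691, 675 and 670.3 in LV-shIL-1β cells, against 848, 902 and 849 in LV-shNC cells. The groups were far apart relative to the spread of the arrays, and the signal fell by 21.6% (log2 fold change -0.35 ± 0.04, SE, limma adjusted p = 0.00193). Its second probe set had signals of 149, 158 and 149 in LV-shIL-1β cells, against 196, 198 and 171 in LV-shNC cells, and also passed (-0.31 ± 0.07, limma adjusted p = 0.0310).

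COL4A2 had signals of 715, 815 and 792 in LV-shIL-1β cells, against 959, 858 and 869.7 in LV-shNC cells. Every LV-shIL-1β array was below every LV-shNC array, yet the arrays of a group spread more than for COL4A1 and the gene missed the threshold (-0.21 ± 0.06, limma adjusted p = 0.0733). Its second probe set also did not overlap (-0.25 ± 0.09, limma adjusted p = 0.119), and the mean of both probe sets passed (-0.23, limma adjusted p = 0.0448). The within-array ratio of COL4A1 to COL4A2 differed by -0.14 (exact permutation p = 0.2).

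The bases between the starts of these 2 genes are shown because the pair shares them as a promoter, and those before the start of HSPG2 because it was another gene that was lower. They come from RefSeq promoter windows of build GRCh38.p14, which matched 32 of the 39 genes and none for ITGA3. The first stretch is chr13:110307158-110307283, plus strand, the direction of COL4A2, 126 bases with a GC content of 80.2%. The second is chr1:21937311-21937560, minus strand, 250 bases with a GC content of 82.8%. Capitals mark matches to GGG, then 5 bases of any kind, then CC, letters used here for NF-kB, on either strand, with overlapping matches counted.
COL4A1/COL4A2: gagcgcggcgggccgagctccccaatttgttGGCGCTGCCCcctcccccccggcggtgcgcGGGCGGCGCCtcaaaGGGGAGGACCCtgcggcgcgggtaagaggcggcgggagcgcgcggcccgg
HSPG2: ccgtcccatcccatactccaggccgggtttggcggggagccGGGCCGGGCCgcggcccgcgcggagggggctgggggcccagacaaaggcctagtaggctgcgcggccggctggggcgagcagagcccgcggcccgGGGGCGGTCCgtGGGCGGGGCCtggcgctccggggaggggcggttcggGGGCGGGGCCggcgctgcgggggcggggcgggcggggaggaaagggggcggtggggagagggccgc
Each stretch held 4 matches. At least one match stood in 71.1% of the 45 windows of these genes and in 58.7% of all 35116 windows of 300 bases. The letters TGANTCA, used for AP-1, stood in 4 of the 45 windows (8.89%), against 7.71% of all windows, and in neither stretch shown. A match is a description of letters and not a binding site.

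COL4A5 and COL4A6, a second head-to-head pair of type IV collagen chains, on chromosome X, have starts 380 bases apart. COL4A5 had signals of 129, 108 and 100.3 in LV-shIL-1β cells, against 103, 122 and 132.6 in LV-shNC cells, and the groups overlapped fully (-0.09 ± 0.11). COL4A6 was steady on all arrays, with signals of 87.3, 85.2 and 88.0 in LV-shIL-1β cells, against 89.5, 86.7 and 90.6 in LV-shNC cells (-0.03 ± 0.06). COL7A1, the collagen of the fibrils that anchor the basement membrane to the tissue beneath, differed by -0.10 ± 0.07.

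Of the linkers, proteoglycans and tenascin, HSPG2 was lower. HSPG2 encodes perlecan, the heparan sulfate proteoglycan that joins laminin and type IV collagen. Its signals were 125, 119 and 119 in LV-shIL-1β cells, against 154, 151 and 145 in LV-shNC cells. The groups did not overlap, and the signal fell by 19.5% (log2 fold change -0.31 ± 0.06, SE, limma adjusted p = 0.0137). Its second kept probe set, near the filter signal of 18.6, had signals of 20.0, 21.1 and 24.1 in LV-shIL-1β cells, against 23.4, 23.0 and 18.9 in LV-shNC cells and did not move with it (-0.0025). HSPG2 no longer passed when LV-shIL-1β array 2 (limma adjusted p = 0.0702), LV-shIL-1β array 3 (0.0611) or LV-shNC array 2 (0.0552) was left out, or with the mean of both probe sets (0.154).

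NID1, or nidogen, which bridges laminin and collagen, was measured close to the filter with signals of 20.6, 20.6 and 21.3 in LV-shIL-1β cells, against 19.9, 20.1 and 22.6 in LV-shNC cells. The groups overlapped, and the 95% confidence interval of its fold change was -0.21 to 0.21. AGRN, or agrin, another heparan sulfate proteoglycan, differed by -0.07 ± 0.06. TNC, tenascin C, a matrix protein of remodelled stroma and of carcinoma cells, had signals of 960.4, 924 and 928 in LV-shIL-1β cells, against 839.6, 911 and 895 in LV-shNC cells. Its groups did not overlap, with higher signals in LV-shIL-1β, but the gene did not pass (0.09 ± 0.05, limma adjusted p = 0.280).

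Of the 3 hemidesmosome genes measured 0 passed limma's adjusted threshold. DST was the 1 lower at an unadjusted limma p under 0.05, as were 12% of all genes tested. DST, dystonin, whose epithelial form ties hemidesmosomes to keratins, had signals of 506, 518 and 483 in LV-shIL-1β cells, against 529, 548 and 549 in LV-shNC cells, without overlap, and a fold change of -0.11 ± 0.05 (limma adjusted p = 0.207). Its 7 kept probe sets ran from -0.11 to 0.26, with 2 of them higher without overlap, so they disagreed in sign. PLEC, plectin, another keratin linker, differed by -0.01 ± 0.09, and the tetraspanin CD151, a partner of laminin-binding integrins, by 0.01 ± 0.07.

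The 6 integrin adaptors lay between -0.15 and 0.15, and 0 passed limma's threshold, adjusted or unadjusted. TLN1, talin, which switches integrins on from inside, had signals of 44.5, 46.3 and 45.2 in LV-shIL-1β cells, against 52.8, 47.3 and 50.5 in LV-shNC cells, without overlap (-0.15 ± 0.07, limma adjusted p = 0.273). Its second kept probe set disagreed (0.14). VCL, vinculin, which ties talin to actin, had signals of 1599, 1654 and 1665 in LV-shIL-1β cells, against 1737, 1691 and 1773 in LV-shNC cells, also without overlap (-0.08 ± 0.04, limma adjusted p = 0.224). PTK2, focal adhesion kinase, had fold changes of 0.15, 0.09, 0.09 and 0.24 on its 4 kept probe sets, all above 0 and none past the threshold. FERMT1, the kindlin of epithelia, differed by 0.05 ± 0.04, the scaffold PXN, paxillin, by 0.01 ± 0.05 and the pseudokinase ILK, integrin-linked kinase, by 0.02 ± 0.06.

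Among the other matrix receptors, the brightest probe sets of CD44, SDC1 and SDC4 did not pass, but other probe sets of CD44 and SDC1 did. CD44, the hyaluronan receptor, had signals of 1911, 1785 and 1709 in LV-shIL-1β cells, against 1843, 2091 and 1965 in LV-shNC cells on its brightest probe set, with overlap (-0.13 ± 0.05, limma adjusted p = 0.210). Of its 12 kept probe sets, 6 were lower and 0 higher, with fold changes of the 6 from -0.16 to -0.32. The lowest of the 6 by adjusted p, -0.27 ± 0.05 (0.00789), had signals of 775, 841 and 801 in LV-shIL-1β cells, against 996, 957 and 956 in LV-shNC cells. Another of the 6, with signals of 862, 902 and 890.1 in LV-shIL-1β cells, against 1198, 1119 and 995 in LV-shNC cells, had the lowest fold change (-0.32 ± 0.06, limma adjusted p = 0.0178). The groups did not overlap on these or on the remaining 4. One of these had signals of 1391, 1511 and 1358 in LV-shIL-1β cells, against 1711, 1635 and 1653 in LV-shNC cells. Another had signals of 1323, 1411 and 1324 in LV-shIL-1β cells, against 1525, 1518 and 1491 in LV-shNC cells, the smallest change of the 6. On one more they were 816, 897 and 835 in LV-shIL-1β cells, against 1019, 975 and 959.9 in LV-shNC cells. The last gave 413, 424 and 432 in LV-shIL-1β cells, against 551, 509 and 470.3 in LV-shNC cells. LV-shIL-1β array 2 was the highest of its group on 5 of the 6.

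One CD44 probe set went the other way without overlap, with signals of 219, 255 and 224 in LV-shIL-1β cells, against 209, 182 and 195 in LV-shNC cells (0.25 ± 0.08, limma adjusted p = 0.0810). Of the 6 lower probe sets, 2 (-0.23 ± 0.05 and -0.21 ± 0.05) carry the suffix x_at, which Affymetrix gives to probes that may also match other transcripts. Many of the CD44 calls were lost when 1 array was left out, whichever it was. The count over all probe sets also fell then, from 1944 to between 694 and 1807. Without 1 array at a time, from 1 probe set (without LV-shIL-1β array 3) to 3 probe sets (without LV-shIL-1β array 1, LV-shIL-1β array 2 or LV-shNC array 3) were lower, and 2 without LV-shNC array 1 or LV-shNC array 2. With eBayes without a trend 1 was lower, and by the methods' t-test 0 were.

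SDC1, syndecan 1, a heparan sulfate proteoglycan of epithelial cell surfaces, had signals of 858, 854 and 872 in LV-shIL-1β cells, against 937, 892 and 865 in LV-shNC cells on its brightest probe set, with overlap at a single LV-shNC array (-0.06 ± 0.04). On its other probe set, with signals of 611, 648 and 671 in LV-shIL-1β cells, against 760.4, 743 and 739.99 in LV-shNC cells, it was lower without overlap (-0.22 ± 0.05, limma adjusted p = 0.0250). SDC4, the syndecan of focal adhesions, differed by -0.0029 ± 0.05. Over all 35 genes, 47 further probe sets were kept, of which 8 were lower and 0 higher, where 3.37% of all probe sets tested were lower and 3.68% higher. Of the 8, 6 were of CD44, which had 11 of the 47, and the other two were of SDC1 and COL4A1.

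**Figure D3:**
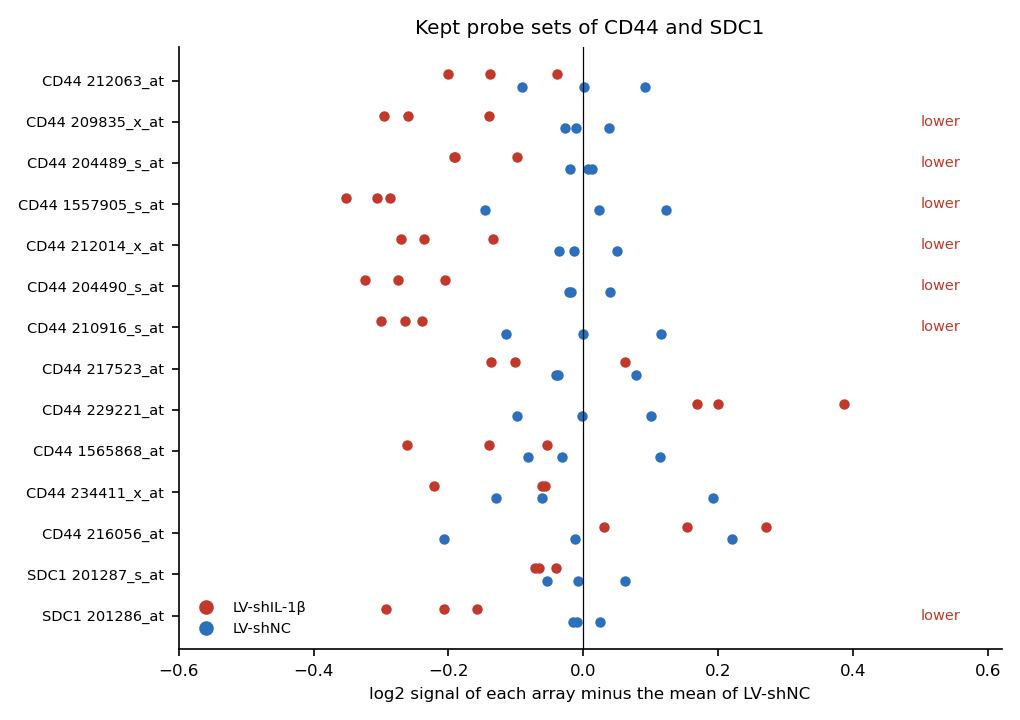
Log2 signal of each array minus the LV-shNC mean (horizontal axis) for the 12 kept CD44 and 2 kept SDC1 probe sets, brightest first for each gene, with LV-shIL-1β arrays in red above LV-shNC arrays in blue and "lower" beside those past the threshold. Of the CD44 probe sets 6 are lower, from -0.16 to -0.32, the brightest (-0.13) is not, and one with no call lies to the right at 0.25.

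On the brightest probe sets, arrays numbered 1 stood apart for many of these genes. In 10 of the 35 genes LV-shIL-1β array 1 was the highest of its group and LV-shNC array 1 the lowest of its own, namely in ITGA2, ITGA6, ITGAV, ITGB1, ITGB8, LAMB1, COL4A1, COL4A5, TNC and CD44. In another 10, namely ITGB4, ITGB5, LAMB3, COL4A2, COL7A1, AGRN, PLEC, CD151, TLN1 and ILK, it was the reverse. These are 28.6% each, against 16.8% and 26.1% of all genes tested. For ITGA6 the mean was 1119 ± 232 in LV-shIL-1β cells and 1185 ± 136 in LV-shNC cells (SD, n = 3 each), with overlap. For CD44 it was 1802 ± 102 in LV-shIL-1β cells and 1966 ± 124 in LV-shNC cells. LAMB1 had signals of 277, 254 and 225 in LV-shIL-1β cells, against 230.1, 273 and 257 in LV-shNC cells. COL4A1 and COL4A2 were in opposite sets. Other probe sets of a gene did not always share its pattern. The second ITGA6 probe set had the reverse, at 823, 913 and 921 in LV-shIL-1β cells, against 931, 908 and 874 in LV-shNC cells. The pattern was noticed in the data, and its part in the fold changes was not tested. No sign was seen that the numbers pair the arrays.

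**Figure D4:**
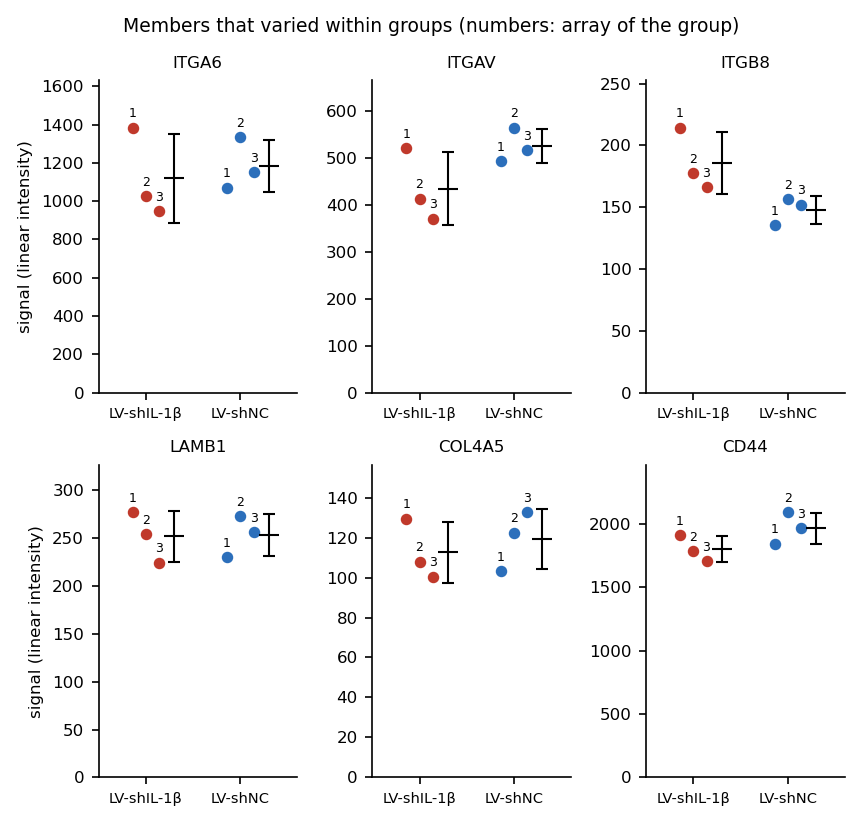
Signal (vertical axes, linear intensity from 0) of 6 genes on each array, numbered as in the labels, with LV-shIL-1β in red on the left, LV-shNC in blue on the right and black marks for the mean ± SD of 3 arrays. Each gene is shown by its brightest probe set. In each of the 6 genes array 1 is the highest of the LV-shIL-1β arrays and the lowest of the LV-shNC arrays. For ITGA6 the signals are 1383, 1026 and 947 against 1069, 1335 and 1150.2.

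To see whether the rest of the adhesion apparatus looked alike, 110 further genes were listed by role, of which 74 were tested. The list was made with earlier results of these data known, so its share of called genes is a description only. Of the 74, 10 were lower and 3 higher in LV-shIL-1β, and their median fold change was -0.05 on the log2 scale. That is 17.6% of the list, against 8.53% of all genes tested. One of the 10, SMOC2, was tested only because its LV-shNC arrays were above the filter. Without genes of that kind 9 were lower and 3 higher of 73, or 16.4%, against 8.38% of all genes tested. Tetraspanins and other matrix receptors had 5 lower of 15 (33.3%), against 4.5% of all genes tested. TSPAN4, a tetraspanin, had signals of 123, 129 and 139 in LV-shIL-1β cells, against 213, 193 and 201 in LV-shNC cells (-0.63 ± 0.07, limma adjusted p = 0.000838), and the groups were well apart. CD9, a tetraspanin that associates with integrins, had signals of 1864, 1852 and 1925 in LV-shIL-1β cells, against 2515, 2514 and 2529 in LV-shNC cells (-0.42 ± 0.03, limma adjusted p = 0.000213). Its other kept probe set differed by 0.02 ± 0.11, and the mean of both by -0.20 (limma adjusted p = 0.0468). GPC1, the proteoglycan glypican 1, had signals of 255, 237 and 261 in LV-shIL-1β cells, against 363, 354 and 345 in LV-shNC cells (-0.50 ± 0.06, limma adjusted p = 0.00118). BCAM, a receptor for laminin alpha 5, had signals of 40.0, 45.8 and 46.0 in LV-shIL-1β cells, against 61.9, 57.3 and 61.4 in LV-shNC cells (-0.46 ± 0.08, limma adjusted p = 0.00996). Its other kept probe set differed by -0.11 ± 0.11, and the mean of both by -0.28 (limma adjusted p = 0.0372). On the brightest probe set the groups did not overlap in any of the 4. TSPAN4 and BCAM did not pass with the methods' t-test (adjusted p = 0.0533 and 0.0911).

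Of 10 other basement membrane genes, SMOC2 left out, 1 was lower and 0 higher. That is 10%, against 8.38% of all genes tested when counted in the same way. SPARC, a collagen-binding protein, had signals of 1168, 1107 and 1083 in LV-shIL-1β cells, against 1452, 1435 and 1432 in LV-shNC cells (-0.36 ± 0.04, limma adjusted p = 0.00108), and on its other probe set 156, 145 and 141 in LV-shIL-1β cells, against 252, 262 and 250.4 in LV-shNC cells (-0.79 ± 0.06, limma adjusted p = 0.000209). The groups were wide apart on both. SMOC2, a relative of SPARC, had signals of 14.5, 15.1 and 14.1 in LV-shIL-1β cells, all below the filter of 18.6, and of 22.0, 24.0 and 21.5 in LV-shNC cells, just above it, so that only a difference could bring it into the test. Of 9 adhesive ligands 2 were lower, THBS1, thrombospondin 1, at 1497, 1560.05 and 1475 in LV-shIL-1β cells, against 1931, 1974 and 1723 in LV-shNC cells (-0.31 ± 0.05, limma adjusted p = 0.00826), and TGFBI, an integrin ligand induced by TGF-β, at 2622, 2716 and 2785 in LV-shIL-1β cells, against 3166, 3064 and 2938 in LV-shNC cells (-0.17 ± 0.04, limma adjusted p = 0.0261). These 2 of 9 ligands are 22.2%, where 4.5% of all genes tested were lower. THBS1 did not pass with the mean over its probe sets (limma adjusted p = 0.0568) or with its most variable probe set (0.205). TGFBI did not pass without LV-shIL-1β array 1 (limma adjusted p = 0.0549), LV-shIL-1β array 2 (0.100), LV-shNC array 1 (0.0691) or LV-shNC array 2 (0.0824). With the methods' t-test neither passed (adjusted p = 0.131 and 0.147). FN1, fibronectin, went the other way, at 372, 431 and 372 in LV-shIL-1β cells, against 341, 328 and 336 in LV-shNC cells. The groups did not overlap, but the gene missed the threshold (0.22 ± 0.06, limma adjusted p = 0.0710). Another of its probe sets passed as higher (0.21 ± 0.05, limma adjusted p = 0.0438).

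Of 6 other integrin chains 1 was higher (16.7%), against 4.03% of all genes tested. ITGAE, the alpha chain that with beta 7 binds E-cadherin on epithelia and is best known from lymphocytes, had signals of 717, 810.3 and 769 in LV-shIL-1β cells, against 592, 553 and 651 in LV-shNC cells (0.36 ± 0.07, limma adjusted p = 0.0139), without overlap. It did not pass without LV-shIL-1β array 2 (limma adjusted p = 0.0814) or LV-shIL-1β array 3 (0.0532). Nor did it pass with the replicate block (limma adjusted p = 0.0601) or with the methods' t-test (adjusted p = 0.155). The 1 other laminin chain tested did not pass.

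Among 32 other adaptors 2 were higher and 1 lower. That is 9.38%, against 8.53% of all genes tested. TNS3, tensin 3, which links beta integrins to actin, had signals of 1604, 1657 and 1693 in LV-shIL-1β cells, against 1452, 1356 and 1423 in LV-shNC cells (0.23 ± 0.04, limma adjusted p = 0.0102). ITGB1BP1, which binds the tail of beta 1 integrin, had signals of 686, 777 and 706 in LV-shIL-1β cells, against 609, 589 and 622 in LV-shNC cells (0.25 ± 0.05, limma adjusted p = 0.0252). KANK2, a talin-binding protein, had signals of 111, 124 and 117 in LV-shIL-1β cells, against 152, 136 and 149 in LV-shNC cells (-0.31 ± 0.07, limma adjusted p = 0.0265). These 3 calls were open to single arrays, and none passed with the methods' t-test. TNS3 lost its call without LV-shIL-1β array 2 (limma adjusted p = 0.0590) or LV-shIL-1β array 3 (0.0516). ITGB1BP1 lost it without any 1 of LV-shIL-1β arrays 2 and 3 and LV-shNC arrays 1, 2 and 3 (0.0548 to 0.0978), and KANK2 without any 1 of LV-shIL-1β arrays 1, 2 and 3 and LV-shNC arrays 1 and 3 (0.0574 to 0.0877). Both also lost it with the mean over 2 kept probe sets, which was 0.13 for ITGB1BP1 (limma adjusted p = 0.202) and -0.12 for KANK2 (limma adjusted p = 0.309).

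**Figure D5:**
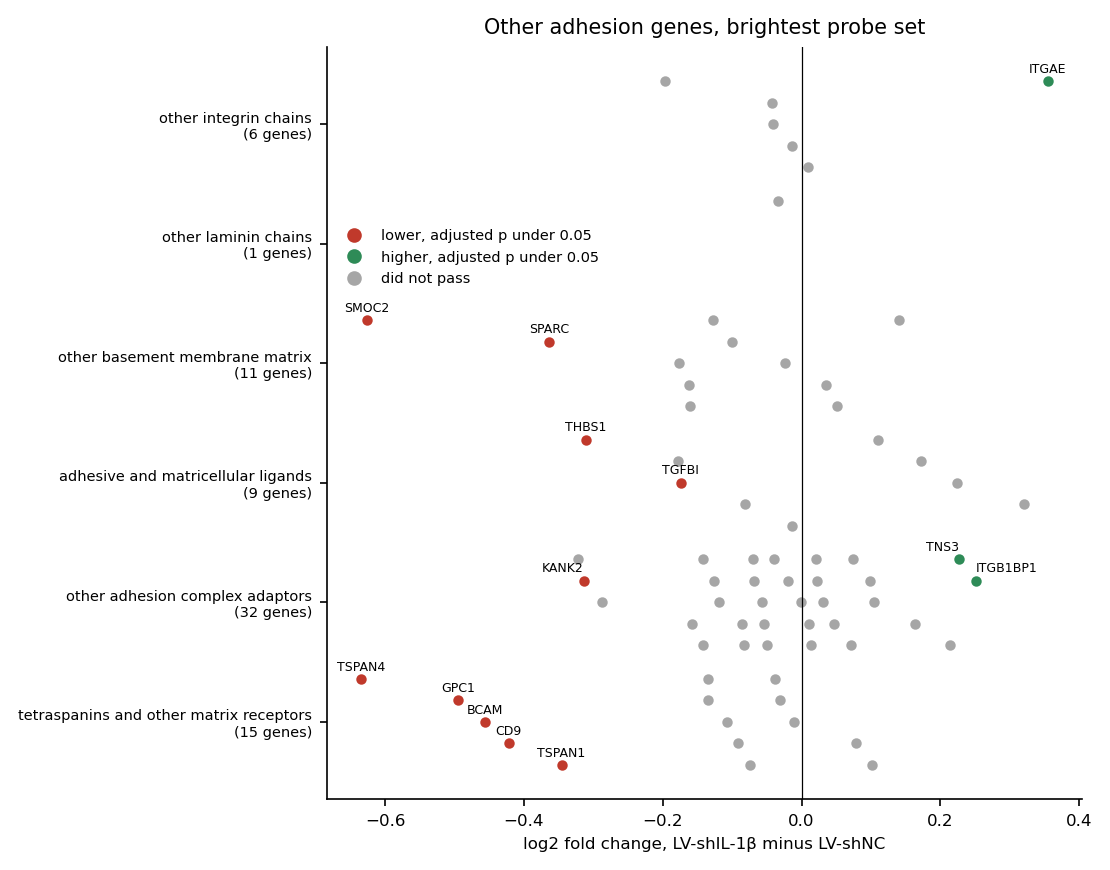
Log2 fold change (x axis, LV-shIL-1β minus LV-shNC) of the brightest probe set of 74 other adhesion genes, in rows by role, with vertical offsets that only separate the points. Red points are the 10 lower genes, from -0.63 for TSPAN4 to -0.17 for TGFBI, and green points the 3 higher ones, up to 0.36 for ITGAE.

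The label of an epithelial line was set against marker genes. Of 10 epithelial and squamous markers 7 were measured and all 7 were above the filter, with summed signals of 20014 to 20374 in LV-shIL-1β cells and 22035 to 22924 in LV-shNC cells. KRT5 (-0.32), KRT14 (-0.35) and KRT16 (-0.57), the keratins of basal and of activated keratinocytes, were lower in LV-shIL-1β. The other markers of this list, CDH1 (0.04), EPCAM (0.06), SFN (0.01) and DSG3 (-0.10), did not pass. The 6 fibroblast markers summed to 118 to 132 in LV-shIL-1β cells and 150.5 to 173 in LV-shNC cells, and COL3A1 and DCN were below the filter on all arrays. LUM and COL1A2 were above it on the LV-shNC arrays alone, at 13.7, 13.0 and 10.3 in LV-shIL-1β cells, against 20.4, 29.5 and 32.6 in LV-shNC cells for LUM and 15.1 to 17.1 in LV-shIL-1β cells, against 21.9 to 25.2 in LV-shNC cells for COL1A2, and their difference is given without a test. The 5 endothelial markers summed to 69.0 to 71.7 in LV-shIL-1β cells and 72.2 to 74.5 in LV-shNC cells, with TEK and KDR below the filter on all arrays. The 4 leukocyte markers measured, of 5, summed to 108 to 114 in LV-shIL-1β cells and 91.5 to 97.6 in LV-shNC cells. PTPRC and CD3E were below the filter on all arrays. CD14 was higher, at 68.1, 75.1 and 68.0 in LV-shIL-1β cells, against 46.3, 51.1 and 51.0 in LV-shNC cells. CD79A went the other way, at 21.5, 19.2 and 26.3 in LV-shIL-1β cells, against 27.7, 28.5 and 27.5 in LV-shNC cells. Its groups did not overlap, but it did not pass (-0.33, limma adjusted p = 0.127). Each sum had the smallest exact permutation p of 0.1. As a sign of RNA integrity, the 3′ to 5′ ratio of ACTB control probe sets was, on the log2 scale, 0.39 ± 0.05 in LV-shIL-1β cells and 0.41 ± 0.13 in LV-shNC cells (SD, n = 3 each, exact permutation p = 0.9). For GAPDH it was 0.04 ± 0.01 in LV-shIL-1β cells and -0.02 ± 0.03 in LV-shNC cells (SD, n = 3 each, exact permutation p = 0.1). The part of the markers and of RNA integrity in the adhesion results was not tested.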

How the data were processed

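RNA of Cal27 cells with LV-shIL-1β or LV-shNC was measured on Affymetrix U133 Plus 2.0 arrays, 3 per group, from 6 µg of total RNA. Groups and array numbers were taken from the sample titles. The authors deposited 1 intensity per probe set and array, not log-transformed, for 54675 probe sets. MAS5 is named in the submitters' processing notes without a version. Its settings, and any normalization between arrays, were not given in the sources used here. If arrays were also normalized to each other, a shift of all genes would have been removed. No detection calls were used. Array medians lay between 18.4 and 18.9, and at most 1.17% of probe sets had equal values on any 2 arrays, which shows that none was deposited as a duplicate. The number of arrays limits the precision.

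Deposited signals were log2-transformed without a pseudocount. The 62 control probe sets were left out, and probe sets with at least 3 of 6 arrays above 18.6, the median of all values, were kept, which left 27546. LV-shIL-1β was compared with LV-shNC by limma 3.58.1 under R 4.3.3 (eBayes with trend, two-sided, Benjamini-Hochberg adjustment over all kept probe sets, threshold 0.05). The script was tested on simulated data. Single values over arrays, such as ratios, were compared with exact permutation tests. Probe sets were named by the platform annotation, which gave 41097 of them 1 symbol, 1801 several and 11777 no symbol. Identifiers of 41043 were found in a RefSeq gene table of GRCh38.p14. Promoter windows of 250 bases before to 50 after a start came from RefSeq on the same build.

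The 39 genes and the other lists were chosen with earlier results of these data known. All members were named, with values on each array for those that passed on any probe set and, in addition, for those near the threshold, without overlap or with wide spread. Of the other lists, up to 4 genes past the threshold were named per list, and FN1 in addition. Alternatives were quantile normalization, median centring, a pseudocount of 16, no filter and a stricter one, eBayes without trend, a t-test of equal variances standing for the methods' test, a fold threshold of 1.5 with an unadjusted p, a replicate block, other choices of probe set, and leaving out each array in turn.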

Additional observations from a re-analysis of the deposited data

How the results depend on the processing

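Of the 17 alternatives run for the adhesion genes, 0 called any of the 35 genes higher. COL4A1 passed in 16, ITGA3 in 15 and HSPG2 in 10. The count of lower genes, 3, was 1 with the methods' t-test, 0 at a fold over 1.5 with an unadjusted p under 0.05 (with no filter), 5 with the most variable probe set of each gene, and 2 to 4 without 1 array at a time. The count of all probe sets called, 1944, was 267 with the methods' t-test, 258 at that fold and 694 to 1807 without 1 array at a time, where leaving out LV-shIL-1β array 2 gave the fewest. Of the 694, 271 were higher. The median fold change of the 35 genes was -0.0603 after quantile normalization, -0.0168 with the mean over probe sets and -0.0809 with the most variable probe set.

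Deviations of same-numbered arrays correlated at -0.39, -0.11 and -0.21, which gave no sign that the replicate numbers of the labels pair the arrays. These correlations cannot tell if same-numbered arrays were handled together. With the replicate block, 568 probe sets, 2 of the 35 genes (not HSPG2, limma adjusted p = 0.0824), 6 of the other adhesion genes and 0 CD44 probe sets passed.

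The alternatives for the other adhesion genes and for the CD44 probe sets were chosen after seeing the data. The 13 other adhesion genes called became 6 with the t-test, 3 at the fold threshold and 8 to 11 without 1 array at a time. CD44 probe sets called lower, 6, became 1 with eBayes without trend, 0 with the t-test, 0 at the fold threshold and 1 to 3 without 1 array at a time.

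Changes of sign were seen only for genes that were past the threshold neither before nor after the change. These were after quantile normalization CD151 (-0.00854) and PXN (-0.00901), after median centring ITGA5 (0.0113), LAMB1 (0.00475), PLEC (0.00920) and SDC4 (0.0114), with a pseudocount of 16 NID1 (-0.000450). They were also with the mean over probe sets ITGB1 (0.0326), ITGB8 (-0.000754, against 0.32 on its brightest probe set), DST (0.0460), PLEC (0.0158) and PXN (-0.0168), and with the most variable probe set ITGB1 (0.105), ITGB5 (-0.0814), PLEC (0.0368) and PXN (-0.0416). Without 1 array at a time, log2 fold changes lay on both sides of 0 for ITGA5 (-0.0415 to 0.0450), PLEC (-0.0694 to 0.0953), CD151 (-0.0462 to 0.0647), PXN (-0.0263 to 0.0412), SDC4 (-0.0332 to 0.0505), ITGA6 (-0.259 to 0.0137), LAMB1 (-0.0807 to 0.0704), NID1 (-0.0342 to 0.0582), ITGB1 (-0.0945 to 0.0216) and ILK (-0.0150 to 0.0503). No other gene of the 35 changed sign under the alternatives run, and the causes of these changes were not tested.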
